A study of Mus musculus with 24 samples.

Results

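The fatty acid oxidation genes under PPAR alpha were followed in the liver and the white fat of mice with different forms of human PER1. The set holds 8 genes, namely Ppara, Cpt1a, Cpt1b, Cpt2, Ehhadh, Cyp4a10, Cyp4a14 and Fgf21. Its members are all probes on the array whose gene name is one of these, which gave 15 of the 55681 probes and 8 of the 34844 gene names.

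PPAR alpha is a nuclear receptor of the liver that binds fatty acids and, as a partner of RXR, switches on genes that burn fat. The carnitine palmitoyltransferases carry long-chain fatty acids into mitochondria, Ehhadh works in peroxisomal beta-oxidation, the Cyp4a enzymes start omega-oxidation, and Fgf21 is a hormone that the fasting liver secretes. In mouse liver this program is known for a daily rhythm that follows feeding, fasting and the circadian clock, of which PER1 is a repressor.

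The labels describe mice that carry human PER1, either with S714 (control) or with S714G (mutant), so both genotypes share the human transgene. All were male, 2 months old, on a C57BL/6 background and kept for 10 days on light-dark cycles before tissues were taken at ZT1 or ZT13, the hours counted from lights on. Tissue, genotype and time give 8 groups with 3 arrays each, called independent repeats in the design. The p-values of differences below rest on the spread between repeats within groups, pooled over all groups of a fit. The promoter that drives the transgene, the number of founder lines and whether a liver and an adipose array with the same number share a mouse are not given in the sources used here.

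RNA was read on 1-colour Agilent arrays with 62976 spots, 24 arrays on 3 slides. Well above background were 45.5% to 71.2% of an array's spots, and precision is limited by how many arrays there are. The 75th percentile of the signal lay between 406 and 731 on the 3 liver control ZT1 arrays and between 865 and 1110 on the other 9 liver arrays. All control ZT1 arrays, from liver and fat alike, were on slide 1, together with replicates 1 and 2 of adipose mutant ZT1. Replicate 3 of that group was on slide 2 with liver mutant ZT1, adipose control ZT13 and replicate 1 of liver control ZT13. The other arrays were on slide 3. Within liver, the comparison of genotypes at ZT1 and every comparison of times therefore cannot be told apart from slide, whereas at ZT13 both genotypes shared slide 3. Within adipose tissue, the comparison of genotypes at ZT13 and every comparison of times cannot be told apart from slide either. All 10 hepatocyte markers were well above background on every liver array, and all 8 white adipocyte markers on every adipose array. Between 8 and 10 of the hepatocyte markers were also well above background on every adipose array.

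Levels below are log2 signals relative to the array's own 75th percentile, which is set at 0, and levels of different probes are not compared with each other. A difference passed the test when its Benjamini-Hochberg adjusted p, over all probes in limma, was under 0.05. Of the 15 member probes, 14 entered the fits of both tissues, and the Fgf21 probe was too dim for either. In liver at ZT13, 2 of the 14 probes passed for mutant against control, both of them Cpt1a and both lower, where 2.99% of all probes passed (1.52% higher and 1.47% lower). At ZT1, 3 passed, all higher, where 45.4% of all probes passed (17.5% higher and 27.8% lower). From ZT1 to ZT13, 5 passed in control liver, 4 higher and 1 lower, where 51.5% of all probes passed (20.2% higher and 31.4% lower). None passed over the same hours in mutant liver, where 1.95% of all probes passed. There 3 of 14 member probes had an unadjusted p under 0.05 in limma, beside 14.1% of all probes. The genotype by time interaction, which is the mutant change over time minus the control change, passed for 4 member probes, all negative, where 31.7% of all probes passed (19.1% positive and 12.6% negative). These liver comparisons share groups of arrays with each other and are not independent. The share of members that passed at ZT1, over time in controls and for the interaction was below that of all probes, and at ZT13 it was 14.3% against 2.99%.

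**Figure D1:**
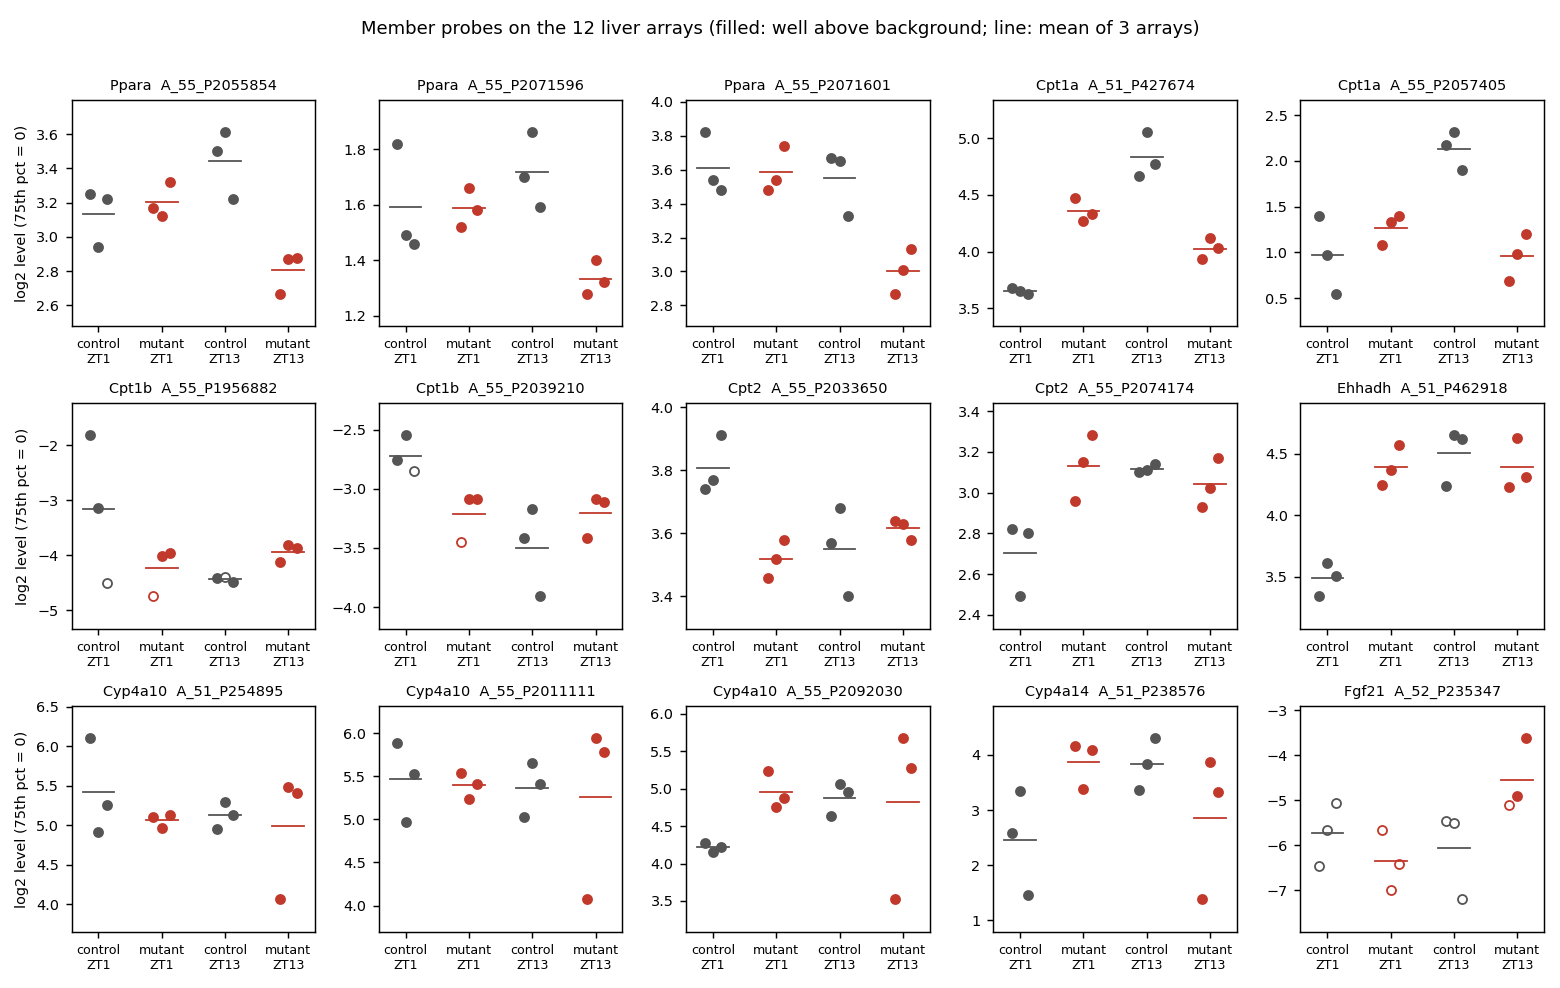
Levels of the 15 member probes on the 12 liver arrays, 1 panel for each probe, as log2 signal relative to the array's 75th percentile, with each y axis on its own scale. Points are arrays, filled where the probe was well above background, lines are means of 3 arrays, and the 2 Cpt1a panels show control ZT13 above the other groups.

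Ppara encodes the receptor itself and has 3 probes, all on chromosome 15, forward strand of mm9, 424 to 5083 bp apart. The first 30 bases of the probe that passed a test below, A_55_P2055854 at chr15:85632110-85632169, are printed to identify the stretch of transcript measured.
Ppara A_55_P2055854: ctttgaaaacctacaagtcaaggtgtggcc
On this probe the liver levels were 3.25, 2.94 and 3.22 in control ZT1 and 3.17, 3.12 and 3.32 in mutant ZT1. They were 3.50, 3.61 and 3.22 in control ZT13 and 2.67, 2.87 and 2.88 in mutant ZT13. Every mutant ZT13 array lay below every other liver array. The difference between mutant and control at ZT13 was -0.64 ± 0.16 (SE), a 1.56-fold lower level, with an adjusted p of 0.0529, which missed the threshold.

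The other Ppara probes gave differences of -0.39 ± 0.14 (A_55_P2071596, adjusted p 0.214) and -0.55 ± 0.16 (A_55_P2071601, adjusted p 0.0998) at ZT13. On all 3 probes the mutant and control arrays of ZT13 did not overlap, as was the case for 6 of the 14 member probes and 29.5% of all probes. At ZT1 the 3 differences between genotypes lay between -0.03 and 0.07. The interaction passed on A_55_P2055854 (-0.71 ± 0.22, adjusted p 0.0315) and not on the other probes (-0.39, adjusted p 0.166, and -0.52, adjusted p 0.0959). That call was lost without liver mutant ZT1 replicate 2 or 3, control ZT13 replicate 1 or 2, or mutant ZT13 replicate 1 or 3, which gave -0.75, -0.65, -0.68, -0.62, -0.64 and -0.75 with adjusted p between 0.0512 and 0.0805. It was also lost over all 24 arrays (adjusted p 0.331), with no filter (0.102) and with slide as a term (-1.87, adjusted p 0.252). In whole tissue, fewer cells of a type and less RNA per cell cannot be told apart, here and in all results below.

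Cpt1a encodes the liver form of carnitine palmitoyltransferase 1, the step at which fatty acid entry into mitochondria is controlled. It carried the only member calls between genotypes at ZT13. Its probes lie 1314 bp apart on chromosome 19, forward strand of mm9, at chr19:3385374-3385433 (A_51_P427674, the mean of 10 spots) and chr19:3384060-3384119 (A_55_P2057405, 1 spot). Their first 30 bases are printed because the agreement of separate stretches bears on the result.
Cpt1a A_51_P427674: tcttaggactacttgctaacctctgttact
Cpt1a A_55_P2057405: acagtcccccgaagtcttttgaatcggctc
On A_51_P427674 the control levels were 3.68, 3.65 and 3.63 at ZT1 and 4.67, 5.05 and 4.77 at ZT13. The mutant levels were 4.47, 4.27 and 4.33 at ZT1 and 3.93, 4.12 and 4.03 at ZT13. The 4 groups did not overlap at all on this probe, with control ZT13 highest, then mutant ZT1, mutant ZT13 and control ZT1.

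At ZT13, Cpt1a fell in mutant liver by 0.80 ± 0.14 (SE) on the log2 scale, 1.74-fold, with an adjusted p of 0.0121. A_55_P2057405 gave the same direction, with 2.17, 2.31 and 1.90 in control and 0.69, 0.98 and 1.20 in mutant. Its groups did not overlap, and the fall of 1.17 ± 0.22 was 2.25-fold with an adjusted p of 0.0193. Of 10 lists of cell type markers, none had lower sums in mutant liver at ZT13 without overlap and 2 had higher sums. These were white adipocyte (10.9 to 13.9 against 10.44 to 10.65) and heart muscle (0.443 to 0.672 against 0.39 to 0.435). The mean log2 level of each of these lists overlapped between genotypes. None of the 6 tested white adipocyte markers passed, and 1 to 4 of the 5 heart markers were well above background. The part of these lists was not tested. On slide 3 alone the Cpt1a differences were -0.88 (adjusted p 0.0372) and -1.15 (adjusted p 0.0473). With no filter on dim probes both calls were lost (adjusted p 0.0779 and 0.0905). The first was also lost without control ZT13 replicate 2 (-0.69, adjusted p 0.0535), mutant ZT13 replicate 1 (-0.75, 0.0647) or replicate 3 (-0.80, 0.0553). The second was lost without control ZT13 replicate 2 (-1.08, adjusted p 0.0786), mutant ZT13 replicate 1 (-1.03, 0.0893) or replicate 2 (-1.18, 0.0694).

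At ZT1 the order of genotypes was the opposite on A_51_P427674, which was higher in mutant liver by 0.70 ± 0.14, or 1.63-fold (adjusted p 0.00262). A_55_P2057405 differed by 0.30 ± 0.22 (adjusted p 0.294), with 1.40, 0.97 and 0.55 in control and 1.08, 1.33 and 1.40 in mutant, and these groups overlapped. Of the 10 marker lists, 5 had lower sums in mutant liver at ZT1 without overlap, among them hepatocyte (1502 to 1617 against 2135 to 2391). The white adipocyte sums were higher (14.1 to 15.9 against 9.19 to 11.1). The part of these lists in the ZT1 differences of Cpt1a and Ehhadh was not tested. From ZT1 to ZT13, Cpt1a rose in control liver by 1.18 (adjusted p 1.05e-04) and 1.15 (adjusted p 0.00163) on the respective probes, 2.26-fold and 2.22-fold. In mutant liver the same differences were -0.33 (adjusted p 0.311) and -0.31 (adjusted p 0.611), short of the threshold. The change over time itself differed between genotypes, by -1.51 ± 0.20 (adjusted p 6.35e-04) and -1.47 ± 0.32 (adjusted p 0.00691).

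With slide as a term in a fit of all 24 arrays, the interaction on Cpt1a was -1.53 (adjusted p 0.0465) and -2.25 (adjusted p 0.0251), so it passed on both probes. The genotype difference of A_51_P427674 at ZT1 was 0.65 and its control change over time was 0.96 in that fit, neither past the threshold, and the control change of A_55_P2057405 was 1.99 (adjusted p 0.0523). In that fit slide 1 and slide 2 are linked through a single group, the adipose mutant ZT1 arrays.

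**Figure D2:**
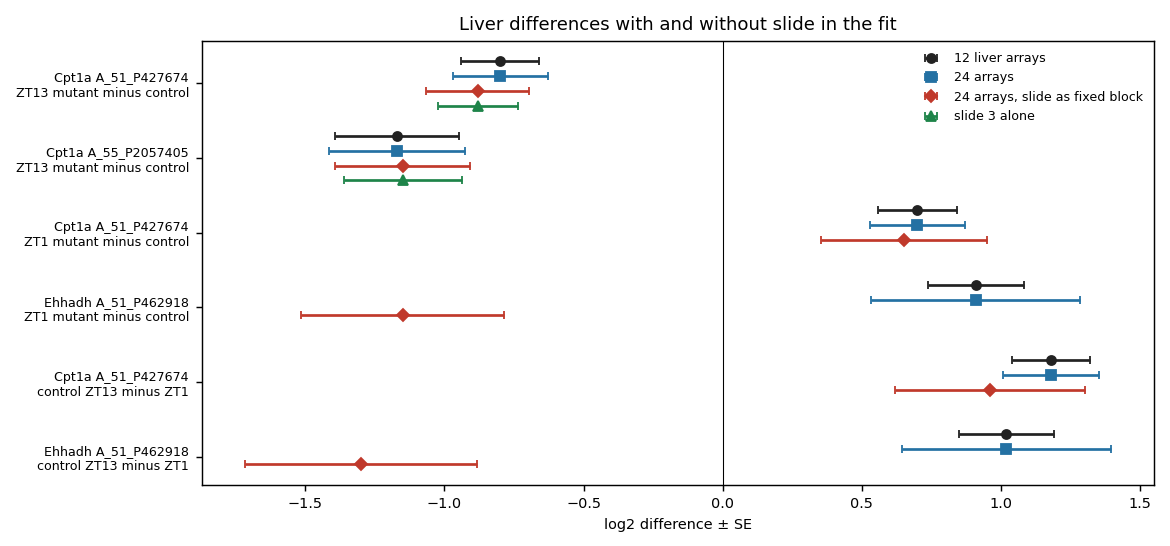
Log2 differences ± SE of Cpt1a and Ehhadh in liver, fitted over 12 liver arrays, 24 arrays, 24 arrays with slide as a term, or slide 3 alone where it held both groups. Within each comparison Cpt1a stays on the same side of 0 in every fit drawn, whereas Ehhadh changes side once slide is a term (0.91 to -1.15 at ZT1 and 1.02 to -1.30 over time).

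Ehhadh, the bifunctional enzyme of peroxisomal beta-oxidation, has 1 probe on chromosome 16, reverse strand of mm9, at chr16:21761914-21761973. Its first 30 bases identify the measured stretch, since the whole account of this gene rests on it.
Ehhadh A_51_P462918: atggccagatttcaggaatgtgttttctat
Liver levels were 3.34, 3.61 and 3.51 in control ZT1 and 4.25, 4.37 and 4.57 in mutant ZT1. They were 4.24, 4.65 and 4.62 in control ZT13 and 4.23, 4.63 and 4.31 in mutant ZT13. The control ZT1 arrays stood below all other liver arrays, which overlapped with each other.

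Ehhadh was thus higher in mutant than in control liver at ZT1 by 0.91 ± 0.17, 1.88-fold (adjusted p 0.00198), and rose from ZT1 to ZT13 in controls by 1.02 ± 0.17, 2.03-fold (adjusted p 7.33e-04). At ZT13 the genotypes differed by -0.12 ± 0.17 (adjusted p 0.854), and over time the mutant differed by -0.01 (adjusted p 0.993). The interaction was -1.03 ± 0.24 (adjusted p 0.0104).

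The Ehhadh pattern followed slide in both tissues. The 3 liver arrays on slide 1 lay between 3.34 and 3.61 and the other 9 between 4.23 and 4.65. In adipose tissue the slide 1 arrays lay between -0.16 and 1.20 and all others between 1.78 and 2.36. Within a single group, adipose mutant ZT1, the slide 1 arrays read -0.16 and 0.23 and the slide 2 array read 2.10. With slide as a term over 24 arrays the signs turned, to -1.15 at ZT1, -1.30 for the control change over time and 0.90 for the interaction, and none of the 3 passed. Over 24 arrays without that term, the difference at ZT1 (adjusted p 0.0729) and the interaction (adjusted p 0.188) did not pass either. Slide and group cannot be told apart for Ehhadh in these liver comparisons.

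Cpt2 encodes the transferase of the inner mitochondrial membrane, which returns the acyl group from carnitine to coenzyme A. Its probes lie 3734 bp apart on chromosome 4, reverse strand of mm9, at chr4:107576591-107576650 (A_55_P2033650) and chr4:107580325-107580384 (A_55_P2074174). They are printed because they did not move together, and the capitals mark AATAAA, the letters of a common polyadenylation signal.
Cpt2 A_55_P2033650, bases 31 to 60: tgtttaaatagaAATAAAcccagtgttgct
Cpt2 A_55_P2074174, bases 1 to 30: attgtgaatccctcagaaatccaggcacat
The hexamer AATAAA, read on the printed strand, stood in 3 of the 15 member probes (1 each of Cpt1b, Cpt2 and Cyp4a10) and in 10.1% of all probes. A match of letters does not show where a transcript ends.

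On A_55_P2074174 the liver levels were 2.82, 2.49 and 2.80 in control ZT1 and 2.96, 3.15 and 3.28 in mutant ZT1. They were 3.1, 3.11 and 3.14 in control ZT13 and 2.93, 3.02 and 3.17 in mutant ZT13. Control ZT1 lay below the other 3 groups without overlap. This probe was higher in mutant liver at ZT1 by 0.42 ± 0.15 (adjusted p 0.0375) and rose in control liver over time by 0.40 ± 0.15 (adjusted p 0.039), both about 1.3-fold.

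On A_55_P2033650 control ZT1 stood above instead, with 3.74, 3.77 and 3.91 against 3.46, 3.52 and 3.58 in mutant ZT1, 3.57, 3.68 and 3.40 in control ZT13 and 3.64, 3.63 and 3.58 in mutant ZT13. The corresponding differences were -0.29 (adjusted p 0.0921) and -0.25 (adjusted p 0.12), neither past the threshold. Over the 12 liver arrays the 2 Cpt2 probes correlated at -0.63, and over the 12 adipose arrays at -0.16. The probes of Cpt1a correlated at 0.82 and those of Ppara at 0.81 to 0.86 in liver, so no single direction is given for Cpt2. The Cpt2 call at ZT1 was lost without control ZT1 replicate 2 (0.31), mutant ZT1 replicate 2 (0.41) or replicate 3 (0.34), with adjusted p between 0.0826 and 0.131. The call over time was lost without control ZT1 replicate 2 (0.30) or any of the 3 control ZT13 arrays (0.39 to 0.41), with adjusted p between 0.0765 and 0.0964. Over all 24 arrays, with no filter, with quantile normalization and with slide as a term both Cpt2 calls were lost (0.35 to 0.86 at ZT1 and 0.25 to 0.83 over time).

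Cpt1b, the muscle form of carnitine palmitoyltransferase 1, was dim in liver on both of its probes, which lie 270 bp apart on chromosome 15, reverse strand of mm9. On A_55_P2039210 the levels were -2.76, -2.55 and -2.85 in control ZT1 and -3.42, -3.17 and -3.91 in control ZT13. The groups did not overlap, and the probe fell over time by 0.78 ± 0.20 in controls (adjusted p 0.00836). Under quantile normalization that difference was -0.16, and with slide as a term -0.17, and neither passed. The other probe read -1.82, -3.14 and -4.51 in control ZT1, the widest spread of any liver group on it, and passed no liver comparison.

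The skeletal muscle markers were also highest in liver control ZT1. Their summed signal, relative to the 75th percentile, lay between 0.817 and 1.34 in liver control ZT1 and between 0.35 and 0.572 in the other liver groups, and only 2 to 4 of the 10 markers were well above background on any liver array. Of the 3 muscle markers that could be tested, all 3 fell in control liver over time, where 31.4% of all probes passed as lower. Other lists set liver control ZT1 apart from the other liver groups as well, such as lymphocytes (1.93 to 2.39 against 0.759 to 1.36) and pancreatic acinar cells (16.3 to 19.4 against 9.3 to 13.7). Liver control ZT1 was also the only liver group on slide 1, with 75th percentiles of 406 to 731. Cell content, slide and the scaling of dim probes cannot be told apart here. The part of any of these in the Cpt1b result was not tested.

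The Cyp4a enzymes hydroxylate the far end of fatty acids and are classical targets of PPAR alpha in mouse liver. Cyp4a10 has 3 probes and shares long stretches with its neighbour Cyp4a31, so 30-base windows of the most similar probes are printed, with capitals at the bases that differ between the members of a pair.
Cyp4a10 A_55_P2092030, bases 31 to 60: accttCcctgatggaCgCtctttaccCaaa
Cyp4a31 A_55_P1952399, bases 31 to 60: accttTcctgatggaTgTtctttaccTaaa
Cyp4a10 A_51_P254895, bases 1 to 30: acGagtttctccatcttccctcctttctgc
Cyp4a31 A_55_P2050628, bases 14 to 43: acAagtttctccatcttccctcctttctgc
The first pair agreed at 54 of 60 aligned bases (90%) and lies on chromosome 4, forward strand of mm9, at chr4:115198463-115198522 and chr4:115243923-115243982. The second pair agreed at 44 of 47 aligned bases (93.6%). The array design gives no position for the Cyp4a10 probe of that pair. Signal from Cyp4a31 transcripts on the Cyp4a10 probes cannot be told apart from Cyp4a10, and the values below are uncertain to that extent.

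On A_51_P254895 the liver levels were 6.10, 4.92 and 5.26 in control ZT1 and 5.11, 4.96 and 5.13 in mutant ZT1. They were 4.95, 5.30 and 5.13 in control ZT13 and 4.06, 5.49 and 5.41 in mutant ZT13. The groups overlapped, and mutant ZT13 replicate 1 stood lowest. The same array was lowest on A_55_P2011111 (4.07 against 5.94 and 5.78 in its group) and on A_55_P2092030 (3.52 against 5.67 and 5.27). None of the 3 probes passed in any liver comparison, and the differences at ZT13 lay between -0.14 and -0.06 with standard errors of 0.37 to 0.43. Those errors leave differences of the size seen for Cpt1a undetectable for Cyp4a10.

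Cyp4a14, on chromosome 4, reverse strand of mm9, read 2.59, 3.35 and 1.46 in control ZT1 and 4.16, 3.39 and 4.09 in mutant ZT1. At ZT13 it read 3.36, 3.84 and 4.30 in control and 1.38, 3.88 and 3.33 in mutant. Mutant ZT13 replicate 1 was again the lowest array. The genotypes differed by 1.42 ± 0.61 at ZT1 (adjusted p 0.0765) and by -0.97 ± 0.61 at ZT13 (adjusted p 0.522), and the interaction was -2.39 ± 0.86 (adjusted p 0.0533), so none of the 3 passed.

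Fgf21, the hormone of the set, was at background on the 9 liver arrays of control ZT1, mutant ZT1 and control ZT13, none of which had it well above. In mutant ZT13 it read -5.12, -4.92 and -3.63, and 2 of these 3 arrays had it well above background. The mean was -4.56 in mutant and -6.07 in control at ZT13. Each control array has a dimmest probe that is still well above background. Taking that level, or the Fgf21 level where higher, for the control, the mutant mean was 1.04-fold higher. That mean includes the array at -5.12, which was not well above background and whose level is itself only a bound. The 1.04-fold value is therefore not a lower limit, and it has no test, as the probe was outside the fit. On the adipose arrays Fgf21 lay between -8.17 and -6.10 and was well above background on none.

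Promoter letters were available from RefSeq (build GRCm38.p6, 250 bases before to 50 after a start site) for 5 of the 8 members, Ppara, Cpt1a, Cpt2, Ehhadh and Fgf21. The consensus that PPAR and RXR bind, AGGTCA repeated in the same direction after 1 spacer base, was in none of the 5 on either strand and in 0.0396% of all 32851 promoters. A looser form built of NGGNCA with the same spacer was in none of the 5 and in 0.798% of all. A single AGGTCA, which is part of that consensus, stood in Cpt1a, as in 16.3% of all promoters, 88 bases before the start site, and appears in capitals as its reverse complement TGACCT.
Cpt1a promoter, chr19:3323195-3323224, forward strand: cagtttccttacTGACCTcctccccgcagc
The clock box CACGTG, bound by the factors that PER1 opposes, stood in Fgf21, 44 bases before its start site, as in 7.15% of all promoters. It is in capitals here, and the GC box GGGCGG, which overlaps its final G, stood in all 5 members and in 35.7% of all promoters.
Fgf21 promoter, chr7:45615523-45615552, reverse strand: gagtggggagggCACGTGggcgggcctgtc
TTANGTAA, the letters of D-box factors, was in none of the 5 and in 2.32% of all. These matches describe letters in a 300-base window, and the arrays did not measure binding.

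**Figure D3:**
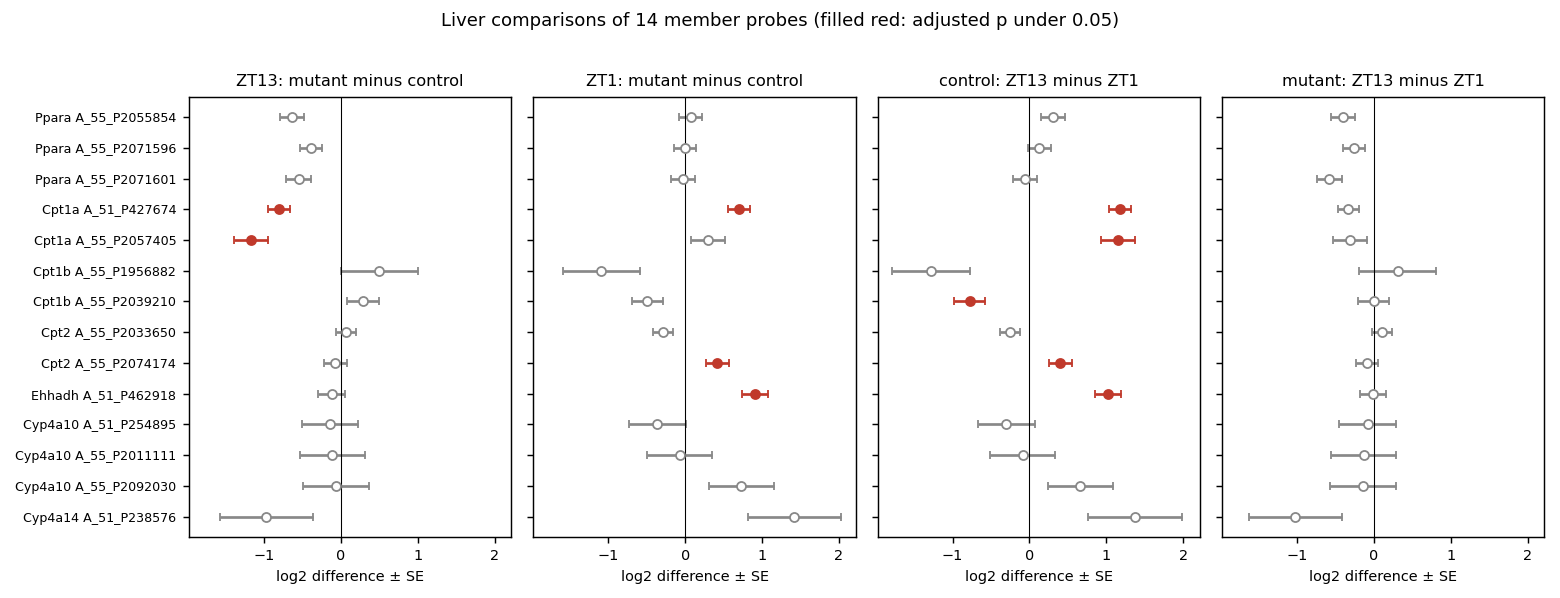
Log2 differences ± SE (limma, 12 liver arrays) of the 14 tested member probes for mutant minus control at ZT13 and ZT1 and for ZT13 minus ZT1 in each genotype, with filled red points at an adjusted p under 0.05. Both Cpt1a probes are below 0 for mutant minus control at ZT13 (-0.80 and -1.17) and above 0 over time in controls (1.18 and 1.15), and no probe passed over time in mutants.

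Across the 14 tested member probes, the median difference between genotypes in liver was -0.13 at ZT13 and 0.03 at ZT1, beside 0.03 and -0.17 over all probes. The median change over time in controls was 0.22 for members and -0.19 for all probes. For the interaction the medians were -0.51 and 0.20. Scaling moved the median of all probes at ZT1, which was -0.26 with normexp and 0.00 with quantile normalization, and the share of calls that were higher went from 38.6% to 29.9% and 52.6%. The same share went from 39.1% to 31.6% and 52.2% for the control change over time, and from 60.2% to 68.3% and 45.4% for the interaction.

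The wider pathway was read from 99 genes in 8 lists of beta-oxidation, omega-oxidation, ketone synthesis, PPAR targets and cofactors, FGF receptors and control of CPT1, with 96 tested in liver, each by its brightest probe. At ZT13, 3 of the 96 were higher and 3 lower in mutant liver, beside 1.52% and 1.47% of all probes, with a median of -0.07. The lists of peroxisomal oxidation (15 tested), omega-oxidation (9), ketone synthesis (5), FGF receptors (6) and CPT1 control (9) held none of these, and mitochondrial beta-oxidation held 1 of 18. The list of PPAR partners and coregulators held 4 of the 6.

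Lpin1, a phosphatidate phosphatase that also acts as a coactivator of PPAR alpha, showed the largest of these differences. It read 4.32, 4.92 and 4.95 in control and 0.98, 0.81 and 0.71 in mutant liver at ZT13, a fall of 3.90 ± 0.22 or 14.9-fold (adjusted p 9.7e-06). At ZT1 the order was the opposite, with 0.13, -0.53 and 0.10 in control and 2.21, 1.95 and 2.26 in mutant (2.24 ± 0.22, adjusted p 7.17e-05). Ppard, the related receptor PPAR delta, read -0.56, -0.92 and -1.11 in control and 1.43, 1.77 and 1.66 in mutant at ZT13, higher by 2.49 ± 0.19 or 5.61-fold (adjusted p 8.15e-05). At ZT1 it was lower in the mutant by 2.08 ± 0.19 (adjusted p 5.02e-05). Pdk4, the kinase that holds glucose carbon back from oxidation and a PPAR target, was -1.61, -2.15 and -1.84 in control and 0.25, 0.75 and 0.65 in mutant at ZT13 (2.41 ± 0.29, adjusted p 0.00169). At ZT1 it was lower in the mutant by 2.41 ± 0.29 (adjusted p 1.97e-04), a call lost with slide as a term (-1.60, adjusted p 0.391). The genotypes did not overlap at ZT13 on any of these 3 genes. Their interactions were -6.14 for Lpin1, 4.57 for Ppard and 4.82 for Pdk4, and with slide as a term -6.12, 5.13 and 4.14, all past the threshold. They also passed the test of whether the ZT13 genotype difference differs between tissues, at -3.68 for Lpin1, 2.23 for Ppard and 2.94 for Pdk4, liver minus adipose (adjusted p 2.02e-06, 9.98e-04 and 0.0154). For Pdk4 that call was lost with slide as a term (2.68, adjusted p 0.132) and without adipose mutant ZT13 replicate 2 or 3, liver control ZT13 replicate 2, or liver mutant ZT13 replicate 2 or 3 (2.80 to 2.89).

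The coactivators Ppargc1b and Ppargc1a fell in mutant liver at ZT13 by 1.02 each (adjusted p 0.0233 and 0.0362), and Crat, carnitine acetyltransferase, rose by 1.16 (adjusted p 0.0369). Ppargc1a lies outside the rule for named genes and was added after its value was seen, to complete the count. The ZT13 calls of Lpin1, Ppard and Pdk4 passed under all 10 processing alternatives, whereas these were lost under some. That of Crat was lost without any 1 of the 6 arrays (1.09 to 1.24) and under 5 of the 10 alternatives: all 24 arrays, no filter, normexp, quantile normalization and slide as a term (0.84 to 1.16). That of Ppargc1b was lost with slide as a term (-1.01, adjusted p 0.0655), with no filter (adjusted p 0.108) and without control ZT13 replicate 1, 2 or 3 or mutant ZT13 replicate 1 or 3 (-1.09 to -0.92). That of Ppargc1a was lost under 3 of the 10, among them no filter and quantile normalization, and without control ZT13 replicate 2 or 3 or mutant ZT13 replicate 1, 2 or 3 (-1.15 to -0.80).

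At ZT1, 23 of the 96 pathway genes were higher and 14 lower in mutant liver, where 17.5% and 27.8% of all probes were. Over time in controls 26 were higher and 13 lower, beside 20.2% and 31.4% of all probes. In mutant liver over time 2 were higher and 3 lower (1.95% of all probes passed). The interaction was positive for 8 and negative for 21, beside 19.1% and 12.6% of all probes. Slc25a20, the carnitine-acylcarnitine carrier that works between CPT1 and CPT2, was higher in the mutant at ZT1 by 1.95 (adjusted p 2.21e-05) and rose over time in controls by 2.24 (adjusted p 5.07e-06). Mlycd, which removes the CPT1 inhibitor malonyl-CoA, gave 1.15 (adjusted p 1.17e-04) and 1.30 (adjusted p 3.28e-05), and Acads, a short-chain acyl-CoA dehydrogenase, 1.15 (adjusted p 1.37e-04) and 1.18 (adjusted p 6.96e-05). With slide as a term the values were -0.19 and 0.09 for Slc25a20, -0.38 and -0.16 for Mlycd, and -0.06 and -0.07 for Acads. Their standard errors were 0.307 to 0.636, and none was past the threshold. Slide and group cannot be told apart for these genes.

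In white adipose tissue no member probe passed between genotypes. At ZT13, 0.0385% of all probes passed. There 4 of 14 member probes, all of Ppara or Cpt1a, had an unadjusted p under 0.05 in limma, beside 4.82% of all probes. At ZT1, 0 of 33788 probes passed in limma, or 0% of all probes, although 2611 (7.73%) had an unadjusted p under 0.05, 4 of them members. All 3 Ppara probes and both Cpt1a probes were lower in the mutant at ZT13 without overlap between the groups, the only 5 member probes of 14 that did not overlap there, where 24.7% of all probes did not. No member was near the threshold. The summed macrophage markers were also lower in the mutant at ZT13 (17.7 to 27.0 against 29.4 to 43.0, all 8 well above background on each array) and the endothelial markers higher (19.2 to 23.1 against 13.7 to 18.2), and their part in these values was not tested.

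On Ppara A_55_P2071601 the adipose levels at ZT13 were 0.52, 0.37 and 0.61 in control and -0.52, -1.05 and -0.55 in mutant. The difference of -1.21 ± 0.36 had an adjusted p of 0.646. On Cpt1a A_51_P427674 they were 2.29, 2.44 and 2.26 in control and 1.96, 1.64 and 1.88 in mutant, a difference of -0.51 ± 0.22 with an adjusted p of 0.994. The 2 further Ppara probes differed by -0.75 and -0.99 and the second Cpt1a probe by -0.61. Whether the ZT13 difference of genotypes itself differs between tissues was tested over 24 arrays. No member probe passed, where 0.161% of all probes passed, and the estimates, liver minus adipose, were -0.30 ± 0.24 and -0.56 ± 0.35 for Cpt1a and 0.11 to 0.66 for Ppara. The difference of the genotype by time interaction between tissues passed for 0.637% of all probes and no member. Control arrays of adipose ZT13 lay on slide 2 and mutant arrays on slide 3, so genotype and slide cannot be told apart there.

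Over time, 1 member probe passed in mutant adipose tissue, where 1.61% of all probes passed. Cpt1a A_55_P2057405 read -0.06, -0.61 and -1.14 at ZT1 and -2.18, -2.30 and -2.08 at ZT13, without overlap, a fall of 1.59 ± 0.26 or 3-fold (adjusted p 0.0175). That call was lost with slide as a fixed term (-0.99, adjusted p 0.88) or as a random block (-1.51, adjusted p 0.936). It was also lost with normexp (-1.05) and without mutant ZT1 replicate 2 (-1.59) or mutant ZT13 replicate 1, 2 or 3 (-1.59, -1.53 and -1.64). Of 10 lists of cell type markers, 3 had lower sums at ZT13 than at ZT1 in the same arrays without overlap. These sums went from between 61.9 and 99.0 to between 17.7 and 27.0 for macrophages. For lymphocytes they went from between 1.94 and 3.30 to between 0.785 and 0.981. For fibroblasts they went from between 195 and 262 to between 134 and 164. Only the endothelial list rose without overlap, from between 11.86 and 17.95 to between 19.24 and 23.09. The part of these lists in the Cpt1a result was not tested. In control adipose tissue no member passed, where 15.0% of all probes passed. There 2 of 14 members had an unadjusted p under 0.05, a smaller share than the 38.2% of all probes. Ehhadh came closest, with 1.06, 1.20 and 0.45 at ZT1 and 2.27, 2.27 and 2.36 at ZT13 (1.40 ± 0.48, adjusted p 0.0643). No member passed for the adipose interaction, where 0.0918% of all probes passed. For it 3 of 14 member probes, all of Ppara or Cpt1a, had an unadjusted p under 0.05 in limma, beside 7.04% of all probes.

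**Figure D4:**
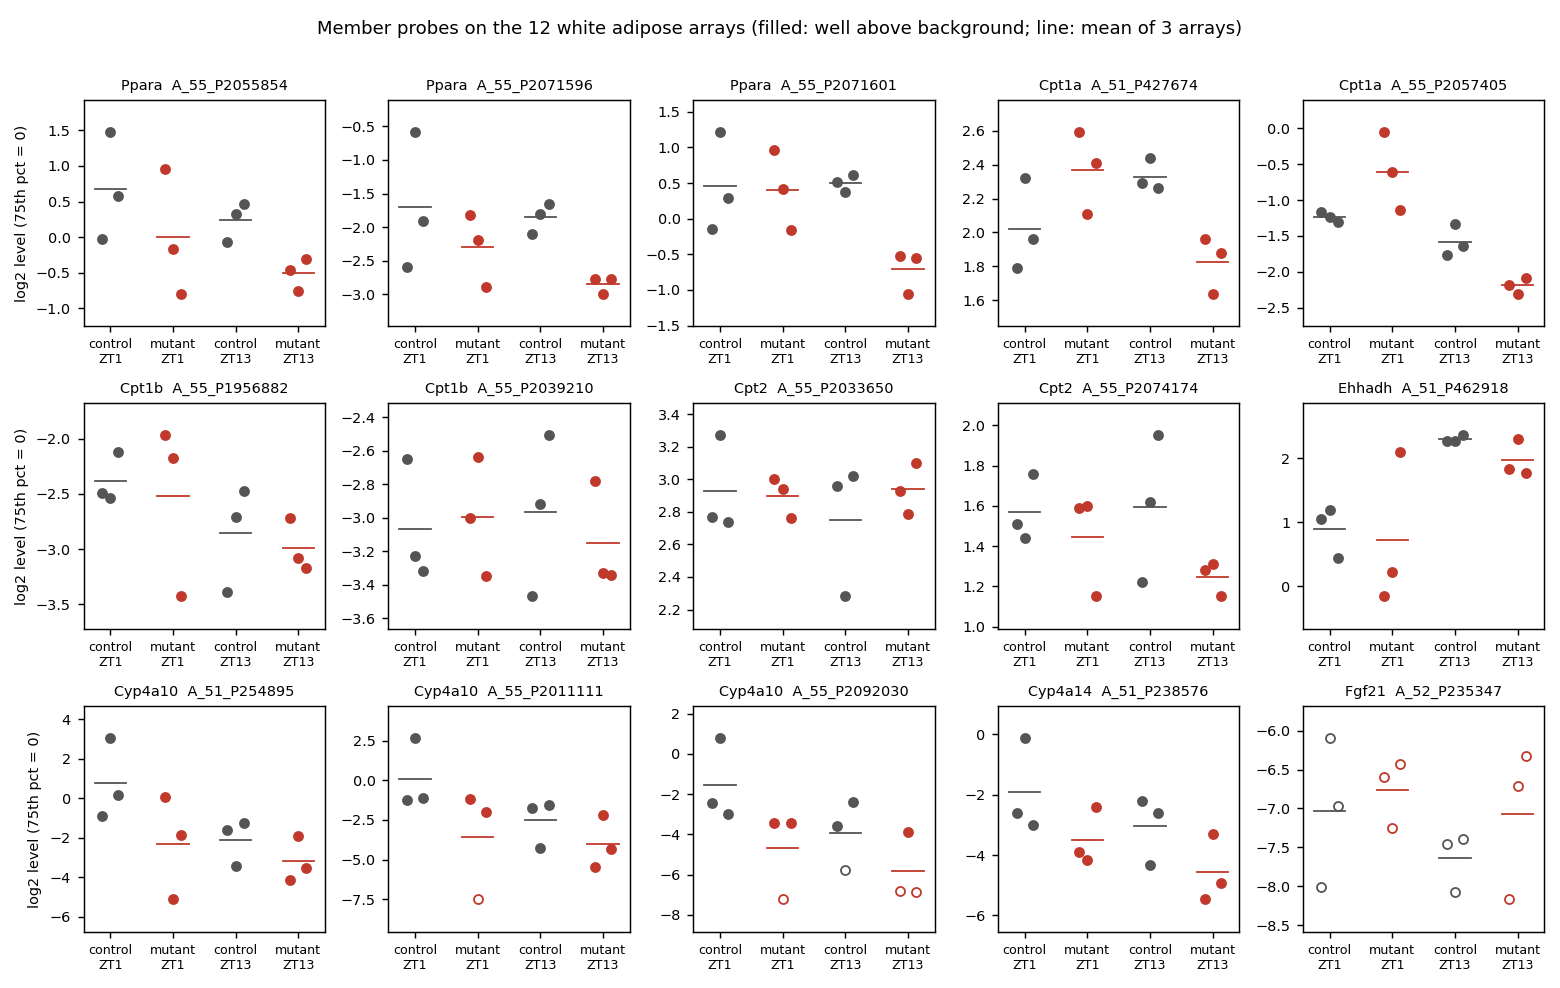
Levels of the 15 member probes on the 12 white adipose arrays, drawn as for liver with each y axis on its own scale. Ppara and Cpt1a in mutant ZT13 lie below control ZT13 on all 5 of their probes, Cyp4a10 spans from -5.12 to 3.02 on A_51_P254895, and Fgf21 is well above background on no array.

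The Cyp4a genes varied most between adipose arrays. Cyp4a10 A_51_P254895 read -0.90, 3.02 and 0.15 in control ZT1 and 0.08, -5.12 and -1.87 in mutant ZT1. At ZT13 it read -1.60, -3.43 and -1.26 in control and -4.12, -1.90 and -3.55 in mutant. The highest and lowest arrays were control ZT1 replicate 2 and mutant ZT1 replicate 2, and the same arrays were highest and lowest in the mean log2 level of the 10 hepatocyte markers (5.67 and -1.88).

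Over the 12 adipose arrays Cyp4a10 and that marker mean correlated at r = 0.94, 0.98 and 0.93 on its 3 probes (Spearman's rho 0.94, 0.94 and 0.89; permutation p 3e-05, 1e-05 and 1e-05 for r, where 1e-05 is the smallest these permutations can give). The adjusted p over the 15 member probes was 1.5e-04, 7.5e-05 and 7.5e-05 for r, by the same permutation test. The permutations ran over all 12 arrays without regard to group or slide. Their p-values therefore do not separate differences between groups from differences within them. The correlations include arrays where the probe was not well above background, 1 for A_55_P2011111 and 4 for A_55_P2092030, whose levels are only bounds. A_51_P254895 was well above background on all 12. Without those farthest 2 arrays r was 0.93, 0.94 and 0.93, and after removing the group means it was 0.96, 0.98 and 0.91. Cyp4a14 gave r = 0.77 and rho = 0.78 (permutation p 0.0053 and 0.0043, adjusted 0.02 and 0.016), 0.80 without the same arrays and 0.65 within groups. No other member passed (Ppara A_55_P2055854 came nearest, r = 0.60, adjusted permutation p 0.12), and in liver none of 15 did. Between genotypes, the hepatocyte markers had a median adipose difference of -3.19 at ZT1 and -1.46 at ZT13, beside -3.06 and -1.09 for Cyp4a10 A_51_P254895. None of the 10 passed a test in adipose tissue. The source of the hepatocyte transcripts on adipose arrays was not tested.

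**Figure D5:**
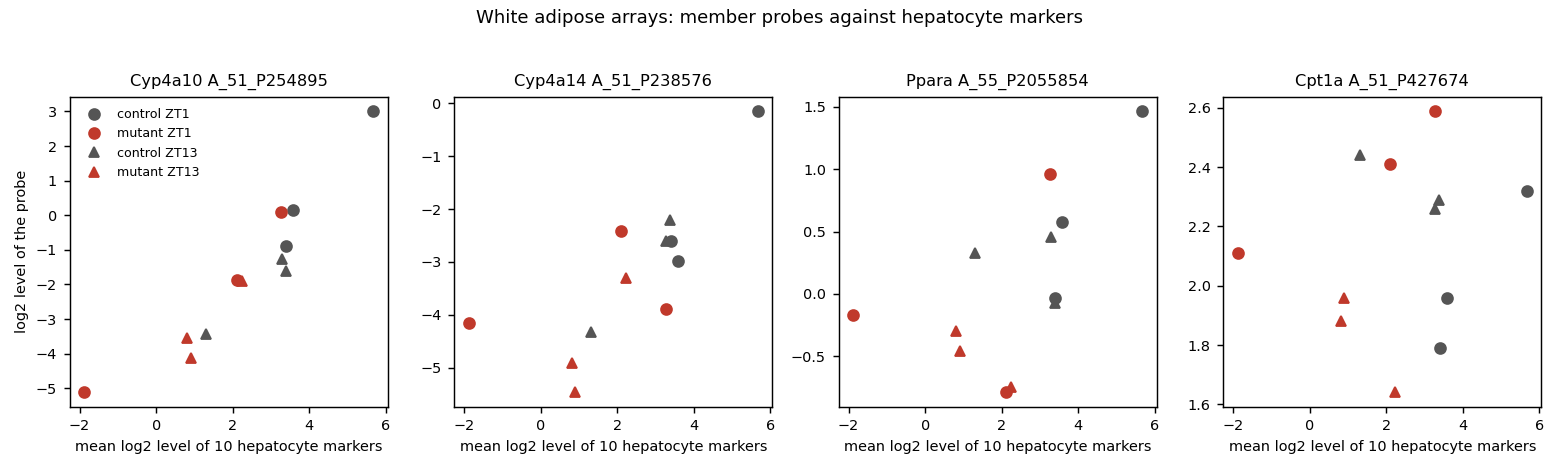
Log2 levels of Cyp4a10, Cyp4a14, Ppara and Cpt1a probes on the 12 white adipose arrays against the mean log2 level of 10 hepatocyte markers on the same array, with 1 point for each array. Cyp4a10 and Cyp4a14 follow the markers (r = 0.94 and 0.77), whereas Cpt1a A_51_P427674 does not (r = 0.19).

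Between tissues, 13 of the 14 tested member probes passed, where 74.0% of all probes passed, and 12 were higher in liver. The mean differences over the 4 group pairs were 3.04 to 3.73 for Ppara, 2.08 and 2.73 for Cpt1a, 0.74 and 1.53 for Cpt2 and 2.72 for Ehhadh. They were 6.86 to 8.72 for Cyp4a10, which on A_55_P2092030 was not well above background on 4 adipose arrays, and 6.51 for Cyp4a14. All of these had an adjusted p of at most 7.56e-07. Cpt1b, the muscle form, was the exception, with -1.25 (adjusted p 8.19e-05) on A_55_P1956882 and -0.11 (adjusted p 0.447) on A_55_P2039210. With quantile normalization Cpt2 A_55_P2033650 went from 0.74 to 0.27 and still passed (adjusted p 0.0128). With normexp the first Cpt1b value was -0.26 and did not pass (adjusted p 0.0753). The median member difference was 2.89 beside 0.10 over all probes. Of the pathway genes, 63 of 96 were higher and 25 lower in liver, with 17 of 18 higher for mitochondrial beta-oxidation, 13 of 15 for peroxisomal oxidation and 9 of 9 for omega-oxidation, whereas Pparg, the adipocyte receptor of this family, was lower by 3.81 ± 0.13 (adjusted p 2.19e-15). In adipose tissue alone, none of 95 pathway genes passed between genotypes at either time, when 0% and 0.0385% of all probes did. Over time in controls 12 were higher and 6 lower, beside 5.81% and 9.16% of all probes. Control adipose arrays of ZT1 lay on slide 1 and those of ZT13 on slide 2, so time and slide cannot be told apart. Calls over all probes went from 5056 to 68 with slide as a fixed term and to 8 with slide as a random block.

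Over the 12 liver arrays, the genes whose brightest probe was most like a member's, among 12163 gene names searched, were listed as a description of arrays that share groups and slides. For Cpt1a they were Tmtc2 (Pearson r 0.980), Serpina6 (0.975) and Foxo1 (0.965). Serpina6 encodes the carrier of corticosteroids in plasma and Foxo1 a transcription factor of the fasting liver. For Ppara they were Pld6 (0.939), Srbd1 (0.923) and Dis3l2 (0.908), and for Ehhadh Hdhd2 (0.977), Kif16b (0.969) and Ube2k (0.968). For Cyp4a10 the nearest was Cyp4a31 (0.968), the gene whose probes share the sequences printed above, followed by Zfp874a (0.838) and Dph1 (0.780). For Cyp4a14 they were Art4 (0.953), Med20 (0.888) and Polr2e (0.850). For Cpt1b they were Osgin1 (0.945), Nppa (0.901) and Ssbp3 (0.898), and for Cpt2 Ccdc107 (0.948), Serf2 (0.906) and Tmem79 (0.905). Among the members themselves, the brightest probes of Ppara and Cpt1a correlated at 0.16 over the liver arrays and 0.76 over the adipose arrays.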

How the data were processed

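The deposited files of the arrays give the intensity of each spot as read by Agilent Feature Extraction 10.7.3.1, per the file headers, whose processed signal has background and spatial trend subtracted and is not scaled between arrays. The deposited value table is on a log2 scale. Each of its columns equals log2 of that array's processed signal minus a constant, with a 75th percentile of 0, which was checked on the values. Control spots and spots with outlier flags were left out, spots of a probe were averaged, and log2 signals were set against each array's 75th percentile. A probe entered a fit when some group had it well above background on each of its 3 arrays (on 0.5 or more of its spots). R 4.3.3 with limma 3.58.1 gave the two-sided tests of differences (eBayes after lmFit, adjusted over all probes), as 4 group means over 12 arrays of a tissue, or 8 over 24 arrays. The fits were tested on simulated data with independent noise and no slide effect or shift in scaling, so that test does not bear on either. Correlations used scipy 1.17.1 with 100000 resamples, figures matplotlib 3.10.9, and tables pandas 2.3.3 and numpy 2.4.6 under Python 3.11.15, with version 1.17.8 of data.table in R.

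No pair of arrays held identical values. The members and the gene lists were chosen with earlier results of these data known, and the 2 comparisons of effects between tissues were added after the first results. Pathway genes were named by the lowest p, up to 3 in each list and comparison, and genes alike in pattern by the highest correlation, 3 for each member. A gene that this rule would name is not reported here. Alternatives were normexp, quantile normalization, no filter, brightest probe, all 24 arrays, slide or replicate as a block, slide 3 alone, the deposited table and each array left out. Positions of probes come from the array design (mm9), and which exon or UTR they lie in was not analysed here.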

Additional observations from a re-analysis of the deposited data

Results flagged for a closer look

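In liver, the effect of genotype differed between ZT1 and ZT13 for 4 of 14 member probes (28.6%), a smaller share than the 31.7% of all probes that passed. The test was of the difference itself (limma interaction, mutant change over time minus control change). The interaction was -1.51 and -1.47 for the Cpt1a probes, -1.03 for Ehhadh and -0.71 for Ppara A_55_P2055854. With slide as a term over 24 arrays these were -1.53, -2.25, 0.90 and -1.87, and the adjusted p was under 0.05 for the Cpt1a probes and over it for Ehhadh (0.452) and Ppara (0.252). The part of slide in these differences was not tested beyond that fit.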

How the results depend on the processing

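Counts of member probes past the threshold moved as follows. With all 24 arrays in 1 fit, they were 1 in place of 3 for genotype in liver at ZT1, 2 in place of 4 for the liver interaction, 2 in place of 0 over time in control adipose tissue and 4 in place of 1 in mutant adipose tissue. With normexp they were 6 for liver ZT1, 7 for the liver interaction, 2 for control and 0 for mutant adipose tissue over time. With the brightest probe for each gene they were 1 for liver ZT13 in place of 2, 3 for control liver over time in place of 5, 2 for the liver interaction, 0 for mutant adipose tissue over time and 6 between tissues in place of 13, since 7 genes enter there in place of 14 probes. With no filter, where dim probes entered both the fit and the adjustment, liver ZT13 gave 0. With slide as a fixed term over 24 arrays, liver ZT1 gave 0, control liver over time 0, the liver interaction 2 and mutant adipose tissue over time 0. With slide as a random block they were 7 for liver ZT1, 8 for the liver interaction, 1 in place of 0 for mutant liver over time and 0 for mutant adipose tissue over time. In liver the correlation within slides was negative in that fit (-0.138), and calls over all probes rose as well. They went from 13976 to 17920 at ZT1, from 9773 to 13041 for the interaction and from 602 to 2646 for mutant liver over time. With arrays left out singly, the counts ran from 0 to 2 for liver ZT13, 0 to 4 for mutant adipose tissue over time, and 0 to 1 for the difference of interactions between tissues (1 without adipose mutant ZT1 replicate 3).

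With the replicate number as a block, the counts were 2 for liver ZT13, 3 for liver ZT1, 5 for control liver over time, 3 for the liver interaction, 13 between tissues and 0 for mutant adipose tissue over time. The calls lost were the interaction of Ppara A_55_P2055854 (adjusted p 0.0526) and the fall of Cpt1a A_55_P2057405 in mutant adipose tissue (adjusted p 0.0505), and among pathway genes named above Ppargc1a at ZT13 and the Pdk4 difference between tissues. Same-numbered arrays did not deviate together in every pair for any 2 groups, so the numbers were not taken to pair samples.

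All reversals came from slide as a fixed term, and the cause was not tested beyond the fits given for slide. In that fit slides 1 and 2 are linked only through the adipose mutant ZT1 arrays. Their mean log2 hepatocyte marker level was 3.26 and -1.88 on slide 1 and 2.11 on slide 2, and its part was not tested. Standard errors were wide, such as 1.65 for Cyp4f14 and 0.556 for Acads at liver ZT1. None of the reversed values passed. Ehhadh went to -1.15 for liver ZT1, -1.30 for control liver over time and 0.90 for the liver interaction. For liver ZT1, Acads went to -0.06, Acat1 to -0.17, Cyp4f14 to -0.99, Cyp4f15 to -0.05, Decr2 to -0.11, Fgf1 to 0.45, Mlycd to -0.38 and Slc25a20 to -0.19. For control liver over time, Acadl went to -0.02, Acads to -0.07, Acat1 to -0.24, Cyp4f14 to -1.0, Cyp4f15 to -0.34, Ep300 to -0.92, Mlycd to -0.16, Prkaa2 to -0.14 and Slc16a6 to 0.88. For the liver interaction, Fgf1 went to -0.39, Mlycd to 0.22 and Slc25a20 to 0.16. For control adipose tissue over time, Ep300 went to -0.27 and Slc25a20 to -0.34. Of the called member differences, 198 of the recomputed values under other settings passed in the same direction, 26 no longer passed and 3 reversed.

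The limits are 3 arrays in each group, and slides that hold whole groups of liver arrays. The share of calls that were higher in control adipose tissue over time went from 38.8% to 24.1% with normexp and 65.8% with quantile normalization. Fgf21 and, in liver, Cpt1b lay near background, where folds are poorly measured.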
